A study of Gallus gallus with 2 samples.

Results

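The signals of 10 transcription factors that steer blood cell lineages were read in DT40 cells that lacked both endogenous H2A.Z genes and carried either the mutant H2A.Z-R80C or H2A.Z.1. The factors were PAX5, EBF1, IKZF1, BCL6 and PRDM1, which act in the B lineage, and SPI1, MYB, RUNX1, GATA2 and GATA3, which act in other lineages or are shared by several. Members were taken from the non-control probes whose RefSeq accession, without its version, belongs to the chicken gene of that symbol. This gave 17 probes for 9 of the 10 genes, out of 5382 named genes in all. No probe was named PRDM1 in this way, so PRDM1, the repressor that drives plasma cell differentiation, was not analysed here.

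DT40 is a chicken B cell line from a bursal lymphoma, and H2A.Z is a histone variant that takes the place of H2A in part of the nucleosomes. The 2 cultures were H2A.Z double-knockout DT40 cells stably expressing FLAG-H2A.Z-R80C, and the same double-knockout background stably expressing FLAG-H2A.Z.1, both grown in the absence of tetracycline. The deletion of the endogenous genes is thus common to both, and a wild-type DT40 culture was not analysed here. The sources used here do not say whether each culture was 1 clone or which promoter drives the transgene. Each group had 1 array, so no test, replicate SD or p-value exists for any difference, and each value describes these 2 arrays.

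Blood lineages are set by small groups of transcription factors that switch on the genes of one fate and hold back those of others. In the B lineage, EBF1 and PAX5 act in sequence: EBF1 opens B cell genes and activates PAX5, and PAX5 commits the cell by activating B cell genes and repressing those of T and myeloid cells. BCL6 then marks the germinal centre stage and PRDM1 the plasma cell, and these repress each other. SPI1 (PU.1), RUNX1, MYB and GATA2 act in stem cells and early progenitors, and GATA3 directs T cells. These roles are known mostly from mouse and human cells.

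The arrays were close in quality. Over all probes, 71.4% of R80C signals and 70.0% of H2A.Z.1 signals lay well above background, by the flag that the scanner software sets for each spot, and no spot was saturated. Both arrays lay on 1 slide and were read in 1 scan. Signals are processed intensities in linear units, background-subtracted within each array. Differences are log2 values of R80C minus H2A.Z.1, after each array was scaled on its 75th percentile (1055 for R80C and 1078 for H2A.Z.1). A gene counts as measured where at least 1 probe was well above background on both arrays, and its difference is the mean over such probes. The standard deviation (SD) of the difference between probes of 1 gene was 0.094 (log2), over 2776 genes with several measured probes. The error that the software assigns to each spot gave a median error of 0.20 for the difference at a single probe. That error was 0.20 to 0.21 at each of the 16 measured member probes, bright or dim. The observed SD of the difference between repeated spots of 1 probe was smaller, at 0.057 over 42 repeated probes. A difference within the software's error can thus still exceed the observed SDs. All of these measures are technical and hold nothing of the spread between cultures.

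The 2 probes of H2AFZ, which encodes H2A.Z.1, stood at 1475 in R80C cells against 1537 in H2A.Z.1 cells and at 933 in R80C cells against 883 in H2A.Z.1 cells. These probes do not tell the transgene from the disrupted gene, as far as the sources used here say, and so check neither genotype. The labelled cell type was checked against marker lists. Of 18 listed B cell markers, 11 had a named probe and all 11 were measured on both arrays, beside 80.4% of all named genes. These B cell markers included CD79B, a signalling chain of the B cell receptor, with signals of 57797 in R80C cells and 59481 in H2A.Z.1 cells. They also included POU2AF1, a B cell coactivator, with 12780 in R80C cells and 13490 in H2A.Z.1 cells. Of 9 T and NK cell genes with a probe, 7 were measured on both arrays, while CD4 and GZMA were not well above background on either. CD3D, a signalling chain of T cell receptors, read 36047 in R80C cells and 39701 in H2A.Z.1 cells. CD3E, another of its chains, read 95.4 in R80C cells and 340 in H2A.Z.1 cells. Its difference was -1.54, with 2 measured probes at -1.88 and -1.20. CD5 read 93.0 in R80C cells and 58.7 in H2A.Z.1 cells. Its difference was 0.50, but its 2 probes were uneven, at 0.20 and 0.80. Among 11 myeloid genes with a probe, CD14, MARCO and LYG2 were among those not well above background, while CTSS read 4319 in R80C cells and 5480 in H2A.Z.1 cells, and MMP9 read 826 in R80C cells and 616 in H2A.Z.1 cells. Measured on both arrays were 7 of these 11, 7 of 8 erythroid and thrombocyte genes and 10 of 14 fibroblast genes with a probe. Most genes with a probe were thus measured in every list, so detection alone says little about the cell type. The summed signal of the B cell list was 290855 in R80C cells and 312083 in H2A.Z.1 cells. Sums are of unscaled signals over all named probes of a list, those not well above background included. Lists held unlike numbers of probes, such as 26 for B cell and 55 for fibroblast markers, so sums are not compared between lists. The T and NK list summed to 73686 in R80C cells against 81534 in H2A.Z.1 cells, and the myeloid list to 10888 in R80C cells against 12953 in H2A.Z.1 cells. The erythroid and thrombocyte list summed to 1322 in R80C cells against 1259 in H2A.Z.1 cells, and the fibroblast list to 2207 in R80C cells against 1511 in H2A.Z.1 cells. Single genes carried 3 of these sums. Without CD3D the T and NK list summed to 1592 in R80C cells against 2132 in H2A.Z.1 cells. Without CTSS the myeloid list summed to 2250 in R80C cells against 1994 in H2A.Z.1 cells, and without COL1A2 the fibroblast list to 647 in R80C cells against 710.3 in H2A.Z.1 cells, so that the direction turned in both. Gene by gene, 6 of the 7 measured myeloid markers lay lower in R80C cells, with a median difference of -0.29. MMP9, at 0.44, was the only one that lay higher. Of the 10 measured fibroblast markers 6 lay higher and 4 lower, with a median of 0.19. Of the 7 measured T and NK markers 4 lay higher and 3 lower, with a median of 0.038, although their sum was lower in R80C cells. For comparison, 55.6% of all measured genes lay above 0 and 44.4% below. The part of the marker lists in the differences below was not tested. In RNA of a whole culture, fewer cells of a type and less RNA per cell cannot be told apart.

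Of the 9 factors with a probe, 8 were measured on both arrays and GATA3 was not well above background on either. All 4 B lineage factors with a probe and 4 of the 5 other factors were measured, against 80.4% of all named genes. Each measured member was above background on all of its probes, 16 in all. The detection calls therefore did not separate the B lineage factors from SPI1, MYB, RUNX1 and GATA2, and set apart GATA3 alone. The probes of 1 gene gave very unequal signals: the brightest of the 4 BCL6 probes read 37.7 times the dimmest in R80C cells and 40.7 times in H2A.Z.1 cells. Signals of different probes, and so of different genes, are for this reason given side by side with no order between them.

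**Figure D1:**
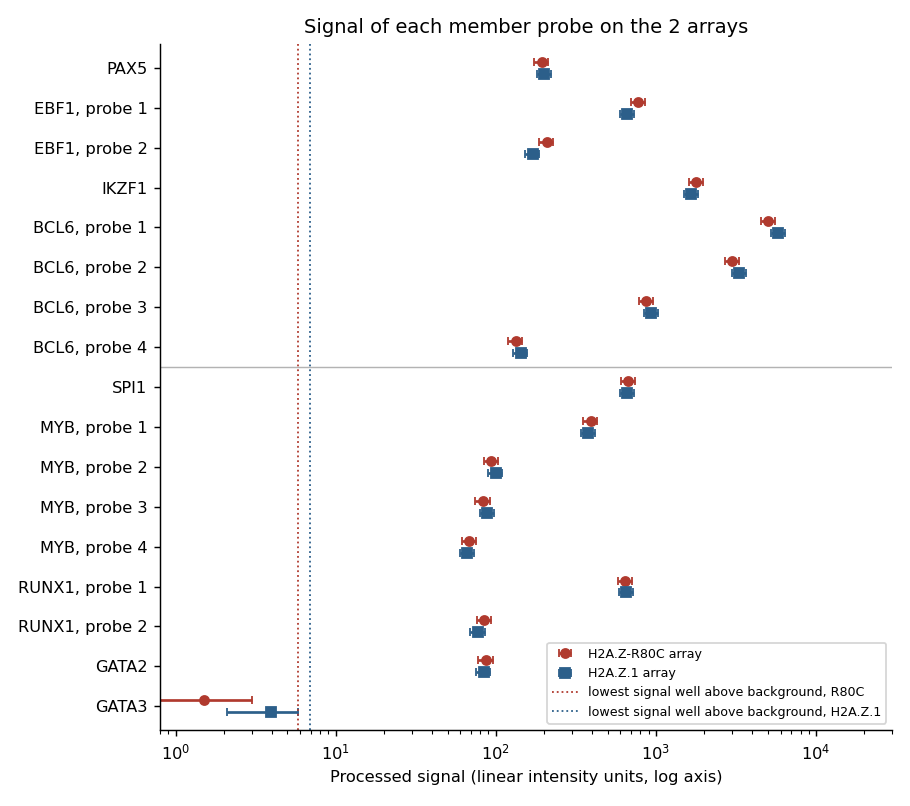
Processed signal of each of the 17 member probes (linear intensity units on a log axis) on the H2A.Z-R80C array (red circles) and the H2A.Z.1 array (blue squares), with the scanner software's error for the spot as bars, the B lineage factors above the grey line and the others below it. Only GATA3 lies left of the dotted lines that mark the lowest signal well above background (5.81 for R80C and 6.95 for H2A.Z.1), and the other probes lie at nearly the same signal on both arrays.

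EBF1, the pioneer factor that starts the B cell programme, had the largest difference among the 8 measured members. Its brighter probe read 773 ± 77.3 in R80C cells and 663 ± 66.3 in H2A.Z.1 cells (± the software's error of the spot), and its dimmer probe 208 ± 20.9 in R80C cells and 170 ± 17.1 in H2A.Z.1 cells. Both probes were higher in R80C cells, by 0.25 and 0.32 (log2). The mean of 0.29 is a 1.22-fold difference, and the probes differed from each other by 0.069. These were the only member probes whose difference exceeded the software's error, which was 0.20 for each. The share of all probes beyond their own error was not computed. Among measured genes, 14.7% lay at least 0.199 from 0 in either direction, so a difference of that size was not rare. Of all 4326 measured genes, 8.74% lay at least as far from 0 as EBF1 in either direction.

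PAX5, the commitment factor that EBF1 activates in mouse, showed no such difference at its 1 named probe, where the error was 0.20 (log2). Its single probe read 194 ± 19.4 in R80C cells and 201 ± 20.1 in H2A.Z.1 cells. The signals lay within each other's error, and the scaled difference was -0.021 (log2), with 83.3% of measured genes at least as far from 0. The sign of the PAX5 value turned under 3 of 10 alternative settings, some of which could not change the value of a gene with 1 bright enough probe.

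IKZF1 encodes Ikaros, a zinc finger protein required early in lymphoid development. Its only named probe read 1786 ± 179 in R80C cells and 1657 ± 166 in H2A.Z.1 cells. The R80C signal was higher by 0.14 (log2), less than the error of 0.20 for that probe but more than the SD of 0.094 between probes of a gene. Of measured genes, 25.3% lay at least as far from 0.

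BCL6, the repressor of the germinal centre stage, was the only member with several probes that all lay lower in R80C cells. The brightest probe read 5027 ± 503 in R80C cells and 5816 ± 582 in H2A.Z.1 cells, and the second 3000 ± 300.0 in R80C cells and 3299 ± 330 in H2A.Z.1 cells. The third read 867 ± 86.7 in R80C cells and 932 ± 93.2 in H2A.Z.1 cells, and the dimmest 133 ± 13.4 in R80C cells and 143 ± 14.4 in H2A.Z.1 cells. The differences ran from -0.18 at the brightest probe to -0.069 at the dimmest, so the size was uneven but the direction was shared. The mean of -0.11 is a 1.08-fold lower signal, and 35.1% of measured genes were at least as far from 0. Each probe lay within its error of 0.20 to 0.21, while the observed SD between the 4 probes was 0.051. The error of the mean over the 4 probes was 0.10, if their errors are taken as independent.

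SPI1 encodes PU.1, which drives myeloid development and is also used at lower levels in B cells. Its single probe read 671 ± 67.1 in R80C cells and 663 ± 66.3 in H2A.Z.1 cells. The difference was 0.048 (log2), within the error of the probe.

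MYB, the progenitor factor first known as the cellular form of an avian retroviral oncogene, was read by 4 probes that disagreed in sign. The brightest read 392 ± 39.2 in R80C cells and 377 ± 37.8 in H2A.Z.1 cells, and the dimmest 68.2 ± 6.95 in R80C cells and 66.3 ± 6.83 in H2A.Z.1 cells. The second probe read 93.8 ± 9.46 in R80C cells and 99.6 ± 10.1 in H2A.Z.1 cells. The third read 83.0 ± 8.38 in R80C cells and 88.4 ± 8.95 in H2A.Z.1 cells. The brightest and the dimmest were higher in R80C cells, by 0.085 and 0.071, and the other 2 lower, at -0.056 and -0.060. The mean was 0.010 (log2), and the probes' SD of 0.079 was larger than that mean.

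RUNX1, a core factor of definitive blood formation that binds DNA with CBFB, had 2 probes. The brighter read 642 ± 64.2 in R80C cells and 650 ± 65.1 in H2A.Z.1 cells, a scaled difference of 0.012, and the dimmer 84.96 ± 8.67 in R80C cells and 77.2 ± 7.98 in H2A.Z.1 cells, a difference of 0.17. The mean was 0.090, carried by the dimmer probe, and neither probe exceeded its error. The gene of its partner CBFB stood at 0.065 over 5 probes.

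GATA2, a factor of stem cells and of erythroid and mast cell precursors, was above background although it is not a B cell factor. Its single probe read 86.7 ± 8.75 in R80C cells and 83.9 ± 8.51 in H2A.Z.1 cells, and its raw spot intensity was 4.36 times the local background in R80C cells and 4.27 times in H2A.Z.1 cells. The difference of 0.078 (log2) lay within the error of the probe. GATA3, the T cell member of the same family, had a single probe at 1.496 ± 1.49 in R80C cells and 3.95 ± 1.86 in H2A.Z.1 cells. Its raw intensity was 1.07 times the local background in R80C cells and 1.17 times in H2A.Z.1 cells. No fold is given for GATA3 under the main setting, because neither signal was well above background.

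**Figure D2:**
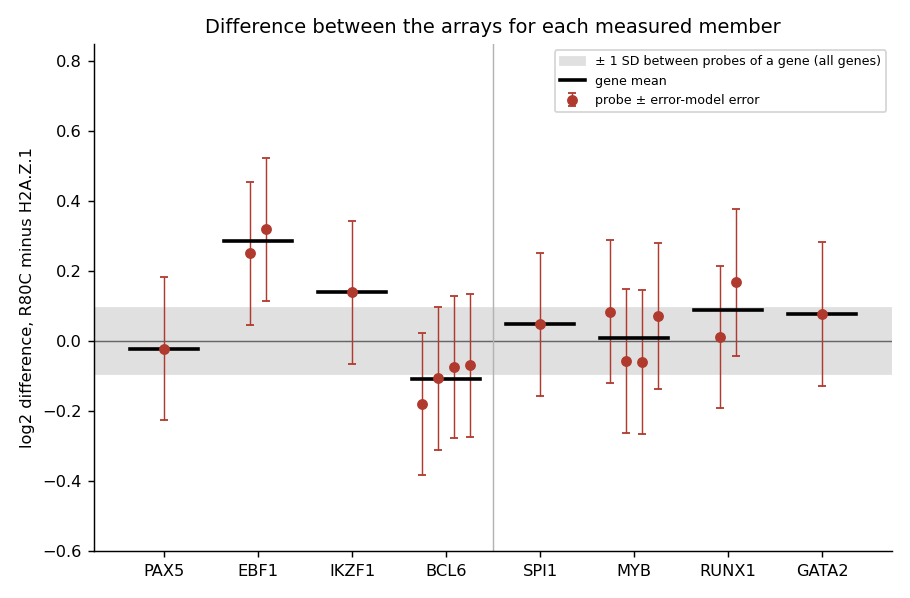
Log2 difference of R80C minus H2A.Z.1 at each of the 16 measured member probes (red points, bars for the software's error of the difference) and the mean of each gene (black lines), with the B lineage factors left of the vertical line. The grey band is ± 0.094, the SD between probes of 1 gene. Only the 2 EBF1 probes lie farther from 0 than their own error, a share that was not computed over all probes.

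None of the 8 measured members differed by 1.5-fold, against 1.94% of all measured named genes (0.670% higher and 1.27% lower in R80C cells). At that background rate a count of 0 among 8 genes says little about the members. Of the 8, 6 lay above 0 and 2 below, beside 55.6% of all measured genes above 0. The median distance from 0 was 0.084 for the members and 0.073 for all measured genes.

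The B lineage factors and the others were set side by side as classes. The 4 measured B lineage factors had a median difference of 0.059 (log2) and ran from -0.11 (BCL6) to 0.29 (EBF1), with 2 above 0 and 2 below. The 4 measured factors of other or shared lineages had a median of 0.063 and ran from 0.010 (MYB) to 0.090 (RUNX1), all above 0. All measured genes had a median of 0.013. Each median rests on 4 genes, and in the B lineage class these lay on both sides of 0. The classes were a choice: IKZF1, required early in lymphoid development, could also be placed with the shared factors. Under other settings the B lineage median ran from 0.039 to 0.13 and that of the other factors from 0.018 to 0.10. The values farthest from 0 in the B lineage class were those of EBF1, IKZF1 and BCL6, with PAX5 nearest to it.

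**Figure D3:**
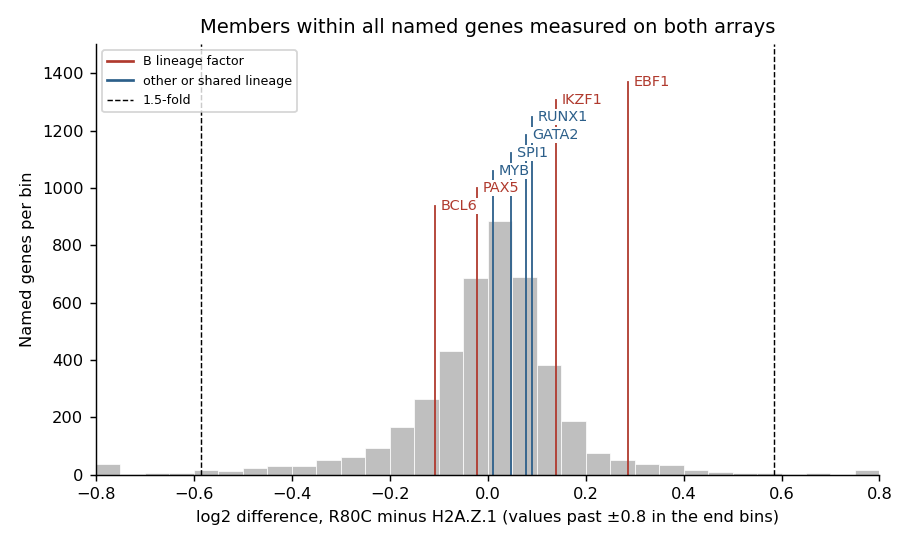
Number of named genes (vertical axis) by log2 difference of R80C minus H2A.Z.1 in bins of 0.05, over the 4326 genes measured on both arrays, with the 8 measured members as lines (red for B lineage factors, blue for factors of other or shared lineages). All members lie inside the dashed 1.5-fold lines, and EBF1 is the farthest from 0.

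Other transcription factors of the B lineage were examined from a list of 21 genes, of which 14 had a named probe and all 14 were measured. None differed by 1.5-fold, 5 lay above 0 and 9 below, beside 44.4% of all measured genes below 0, and the median was -0.021. IRF4, which acts in pre-B and plasma cells, was farthest from 0 at -0.25 over 2 probes, with signals of 8376 in R80C cells and 9881 in H2A.Z.1 cells. XBP1, a driver of the secretory programme of plasma cells, stood at -0.14 over 2 probes, with 24851 in R80C cells and 28037 in H2A.Z.1 cells. TCF3, which encodes the E2A proteins that act with EBF1, stood at -0.13 over 3 probes, and FOXO1, another early B cell factor, at -0.019 over 4 probes. TCF3 and FOXO1 were named after their values were seen, as partners of EBF1.

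Factors of other lineages came from lists of the same kind. Of 14 listed T and NK lineage factors 5 had a probe, of which TCF7, STAT4 and ID2 were measured while RORA and MAF were not well above background on either array. ID2, an inhibitor of E proteins that opposes B cell development, read 233 in R80C cells and 182 in H2A.Z.1 cells, a difference of 0.40 with its 3 probes between 0.37 and 0.43. TCF7, the T cell factor, stood at 0.026 on 1 measured probe. Of 25 listed myeloid, erythroid and stem cell factors 14 had a probe, of which 7 were measured on both arrays and 6 on neither, among them TAL1, ERG, MEIS1, IKZF2 and EGR1. GFI1B was well above background on the R80C array alone, at 7.99 in R80C cells against 8.43 in H2A.Z.1 cells, so the R80C signal was the lower of the 2. CEBPA, the main factor of granulocyte and macrophage precursors, was dim at 19.3 in R80C cells and 13.7 in H2A.Z.1 cells, a difference of 0.53 on 1 probe with an error of 0.28. CEBPB, a related factor, stood at 0.24 on 1 measured probe with an error of 0.39.

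These shares are a description: measured genes made up 14 of 14 for the B lineage factors, 3 of 5 for the T and NK factors and 7 of 14 for the myeloid, erythroid and stem cell factors, beside 80.4% of all named genes.

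Family relatives and cofactors of the members gave 16 genes with a probe out of 38 listed. Of these 10 were measured, none 1.5-fold different, with 7 above 0, 3 below and a median of 0.067. Beside them, 80.4% of all named genes were measured, and 55.6% of measured genes lay above 0. The relatives PAX2, PAX6, EBF2, GATA5, GATA6 and RUNX2 were not well above background on either array. CBFA2T3 and CBFA2T2, corepressors of the ETO family, were farthest from 0. CBFA2T3 stood at 0.22, with its 3 probes between -0.036 and 0.37, and CBFA2T2 at 0.20 on 1 probe. MYBL2, the MYB relative of dividing cells, read 4988 in R80C cells and 5015 in H2A.Z.1 cells over 3 probes, a difference of 0.022.

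**Figure D4:**
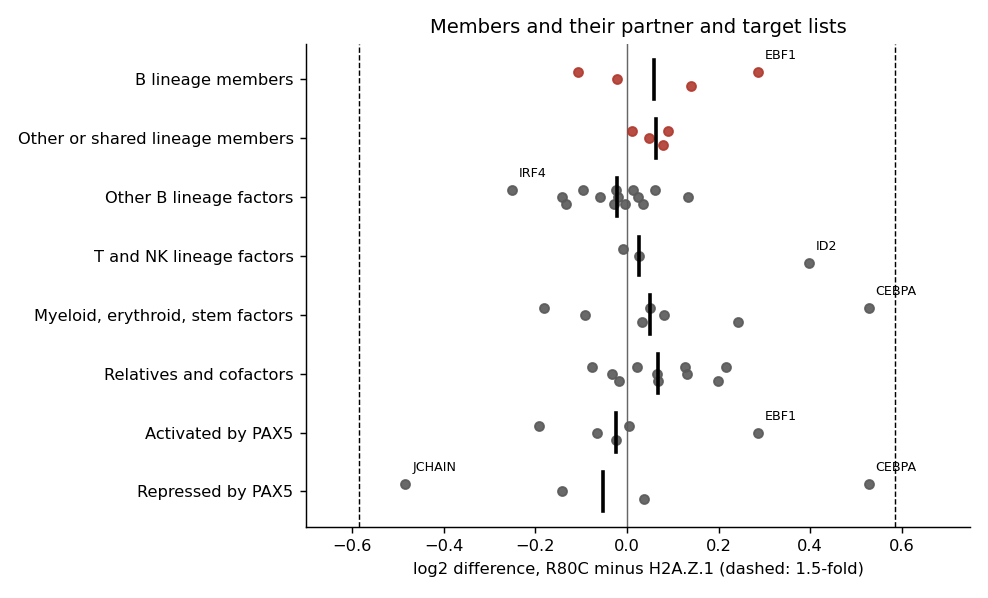
Log2 difference of R80C minus H2A.Z.1 (horizontal axis) for each gene of the member, partner and target lists that was measured on both arrays (marker lists are not shown), with the members in red, other genes in grey and the median of each list as a black bar. All genes shown lie inside the dashed 1.5-fold lines, and those farthest from 0 are CEBPA at 0.53 and JCHAIN at -0.48.

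Genes known to respond to PAX5 were listed in both directions. Their counts stand beside 80.4% of all named genes measured and 55.6% of measured genes above 0. Of 14 genes that PAX5 activates, 5 had a probe and were measured, 2 above 0 and 3 below, with a median of -0.023. EBF1 itself, at 0.29, was the farthest from 0. CD79B stood at 0.0039 and CD72, a B cell coreceptor, at -0.065, each over 2 probes. Of 11 genes that PAX5 represses, 5 had a probe and 4 were measured, 2 above 0 and 2 below, with a median of -0.052. JCHAIN, whose product joins polymeric immunoglobulins, stood at -0.48 on 1 probe (4746 in R80C cells and 6780 in H2A.Z.1 cells), opposite in sign to CEBPA in the same list. XBP1 stood at -0.14, as above, and CD28, a T cell costimulatory receptor, at 0.038 on 1 measured probe, while CCR2 was not well above background on either array.

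Genes of plasma cells, the stage that PRDM1 directs, were read from a further list. Of 10 listed genes 4 had a probe, and JCHAIN, IRF4, XBP1 and DERL3 all lay below 0, beside 44.4% of all measured genes. Their median was -0.20 and none was 1.5-fold different. JCHAIN, IRF4 and XBP1 belong to lists given above as well, so only DERL3 is new here. DERL3, a factor of protein quality control in the endoplasmic reticulum, stood at -0.11 over 3 probes. The B cell marker list, which shares JCHAIN with it, had 6 of 11 measured genes below 0 and a median of -0.059, with CD74, the invariant chain of antigen presentation, at -0.36.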

How the data were processed

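Total RNA of each culture was labelled with Cy3 and hybridised to a 1-colour Agilent chicken array, per the labels' protocols. Agilent Feature Extraction 11.5.1.1 (protocol GE1_1105_Oct12, per the file headers) made the deposited linear spot intensity, its error and other 0 or 1 flags for each spot. No normalization between arrays was applied to the processed signal. The authors' series matrix holds linear intensity, a near-constant multiple of the processed signal (1.51 for R80C and 1.50 for H2A.Z.1) whose basis stays unknown, with column medians of 125.1 for R80C and 129.9 for H2A.Z.1. Neither centring nor a log was found in it.

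From each log2 processed signal the log2 75th percentile of its array was subtracted, with spots of a probe averaged and outlier-flagged spots left out (0 for R80C and 1 for H2A.Z.1). Of 13060 probes with a RefSeq accession, 11935 were named through a RefSeq table of assembly GRCg7b, and others, which may include further probes of the members, were left unnamed. The grid is of build galGal3, so no coordinates are given. limma 3.58.1 in R 4.3.3 gave the alternative scalings. Software was tested on simulated data that held only probes well above background and changes larger than those of the members. That test thus does not cover dim probes or small differences. With 1 array per group no test was run, and this number of arrays sets the precision. The members and lists were chosen with earlier results of these data known. All members were named, and in each list the 2 measured genes farthest from 0 and any that differed by 1.5-fold. Other list genes (CD79B, CD72, POU2AF1, CD3D, CTSS, MMP9, TCF3, FOXO1, CBFB, MYBL2, DERL3 and CD28) were chosen after their values were seen. The same holds for XBP1 in the PAX5 and plasma cell lists, while the rule took it among the other B lineage factors. Some genes that the rule took are not reported here. The rule also named TIMD4 (-0.54) and CSF3R (-0.54) among myeloid markers. It named HBBA (0.25) among erythroid and thrombocyte markers, and COL1A2 (0.94) and VIM (-0.89) among fibroblast markers. The 4 measured COL1A2 probes were uneven, from 0.084 to 1.56.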

Additional observations from a re-analysis of the deposited data

How the results depend on the processing

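Each of the 8 measured members was recomputed under 10 alternatives: scaling on the array median, quantile normalization, loess, spike-in scaling, the series matrix, quantile normalization after normexp (offset 50), no filter on dim probes, a lenient detection flag, and the median or the brightest probe of a gene. All 80 values moved by less than the SD between probes of a gene, but part of them could not move. All probes of these 8 members were well above background, so the lenient flag and no filter left each value unchanged. The choice of probe could not change PAX5, IKZF1, SPI1 or GATA2, with 1 probe each. The median probe could not change EBF1 or RUNX1, with 2 probes each. The counts of kept signs include these settings. EBF1 lay between 0.24 and 0.32, BCL6 between -0.18 and -0.070, and IKZF1 between 0.11 and 0.18. EBF1, BCL6, IKZF1, GATA2 and RUNX1 kept their sign in all 10, SPI1 in 9, MYB in 8 and PAX5 in 7. No member differed by 1.5-fold under any alternative except with no filter on dim probes. There GATA3 alone did, at -1.37 with a larger error of 1.59, on signals not well above background. After normexp without that filter GATA3 stood at -0.098. The median of the other-lineage factors was 0.063, and 0.018 under normexp and 0.10 with the array median. That of the B lineage factors was 0.059, and 0.13 with PAX5 and EBF1 only, 0.097 with the array median and 0.039 with spike-in scaling. With the lenient flag 16 member probes were detected in R80C cells and 17, GATA3 included, in H2A.Z.1 cells. Over the 4326 measured named genes, 29 stood 1.5-fold or more above and 55 below H2A.Z.1 in R80C cells. Under normexp the counts came to 7 and 15 of the same 4326 genes. Other settings took in more genes, with 132 and 146 of 4796 under the lenient flag and 143 and 163 of 5382 with no filter. The cause was not tested. Dim signals limit what GATA3 can show. No paired analysis was possible because each group has 1 array.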
